A study of Homo sapiens with 6 samples.

Results

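Control-transfected MOLM14 cells were profiled on 3 arrays, replicates 1 to 3 of the siCTRL group, out of 6 arrays in the series. They were chosen by their title, and the arrays of cells that received siRNA against ATF4 were not used. MOLM14 is an established human acute myeloid leukaemia line with monocytic features, an internal tandem duplication in the receptor FLT3 and a KMT2A-MLLT3 fusion. A control siRNA had been given to the cells at 70 nM by electroporation, and it is one that the labels call scrambled in one place and a non-targeting pool in another. The medium was RPMI with serum, and these are electroporated cells and not untouched ones. Total RNA (100 ng) was labelled and hybridised to Affymetrix whole-transcript arrays. The labels call the samples technical replicates and give no culture, date or batch, so the spread given here may be partly technical. With 1 group and 1 array for each replicate number, no test was made, and every value below is a description.

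An acute myeloid leukaemia blast is held between progenitor and mature myeloid cell. Transcription factors such as SPI1, IRF8 and MYB keep this state. Granule enzymes such as MPO and PRTN3 mark the promyelocyte and early monocyte stage. Lysozyme (LYZ), TYROBP and CSF1R come up as monocytes form. KMT2A fusions drive the homeobox genes of the HOXA cluster and their partner MEIS1. Interferon-stimulated genes are a set that cells switch on together when interferon is sensed, through an element in their promoters.

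A gene's level is the log2 value of its brightest array feature. Over 14884 genes with a named feature the 3 arrays correlated at r = 0.99 (replicates 1 and 2) and 0.97 (replicate 3 with either), with no pair of arrays identical. The SD of the differences between arrays was 0.25 for replicates 1 and 2, 0.45 for replicates 3 and 1 and 0.41 for replicates 3 and 2. Replicate 3 therefore stood apart from the other arrays, and each result that rests on it is given by array. The medians over all features were 3.88, 3.96 and 3.90. A median gene had an SD of 0.16 and a range (highest minus lowest array) of 0.31, and for 95.3% of genes the 3 arrays lay within 1 log2, which is 2-fold.

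No detection value came with the table, so a background level was taken from 85 genes that a blood cell line is not thought to use: keratin-associated proteins, taste receptors and beta-defensins. The 95th percentile of their levels was 4.70, 4.82 and 4.45 on replicates 1, 2 and 3. By this rule 6435 genes (43.2%) lay above the background level on all 3 arrays, 7208 genes (48.4%) lay at or below it on all 3, and 1241 (8.34%) were mixed. Of the 11916 protein-coding genes 50.4% were above. The shares were 11.4% of 1398 long noncoding RNA genes, 12% of 1072 microRNA genes and 24.8% of 447 transcribed pseudogenes. By mean level 6078 genes were under 4, 4284 lay from 4 to 6, 3363 from 6 to 8, 1070 from 8 to 10, and 89 at 10 or more. A feature's brightness also depends on its probes, so an order of genes by level is an order of signal and not of transcripts per cell, which holds for every such order below.

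**Figure D1:**
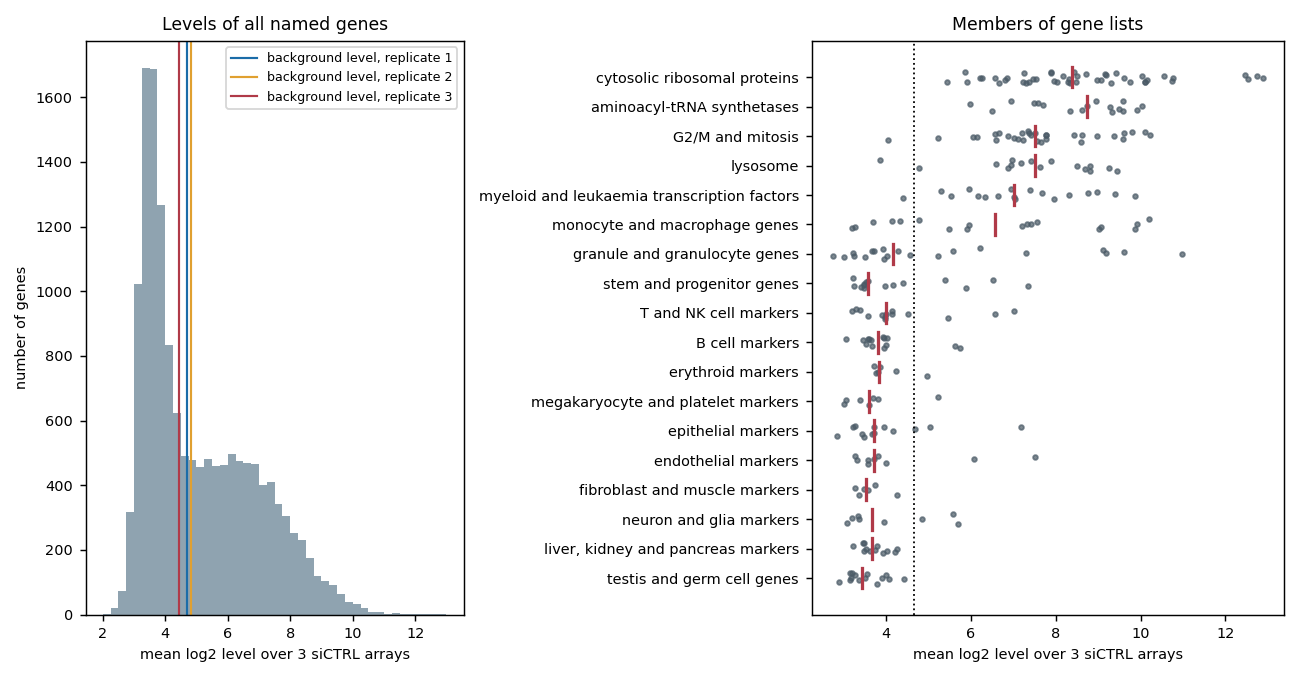
The left panel counts the 14884 genes by mean log2 level over the 3 siCTRL arrays, with the background level of each array as a line. The right panel shows each measured member of 18 gene lists as a point and the list median as a bar, with the mean background level dotted. All ribosomal and synthetase members and most cell cycle members sit to the right of the line, and most markers of other lineages sit to its left.

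Among genes with a named feature, ribosomal proteins and elongation factors made up 6 of the 20 brightest and held the first 3 places. Features without a symbol were not ranked. Over all features, named or not, the highest value was 14.23, 14.13 and 13.97 on replicates 1, 2 and 3. The ribosomal protein RPS27 read 12.92, 12.94 and 12.80 on replicates 1 to 3, and RPL41 read 12.79, 12.80 and 12.67. RPL12, RPS28, the elongation factor EEF2 and the elongation factor subunit EEF1G followed with means of 12.54, 12.46, 12.46 and 11.85. These values differed little between arrays, with ranges of 0.08 for RPL12 to 0.33 for EEF1G. SRGN, the proteoglycan that packs proteases into the granules of blood cells, read 12.57, 12.50 and 12.35. OAZ1, which restrains polyamine synthesis, had a mean of 12.09, and MSN, which ties the membrane to actin, one of 12.05.

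Others among the 20 brightest were MOB3A (11.53), the splicing regulator PTBP1 (11.39), the ER chaperone CALR (11.37), the ETS factor ELF1 (11.33) and the lysosomal membrane protein LAPTM5 of blood cells (11.10). The granule protease PRTN3 was the last of them at 11.09, 11.23 and 10.61. RMRP, the RNA of the RNase MRP particle, had a mean of 11.42, and MALAT1, a nuclear long noncoding RNA, one of 11.41. LINC00987 had a mean of 11.05, but its next brightest feature read 4.46, 4.83 and 4.43, close to the background level. Its place here is therefore uncertain. HNRNPA1P10 (11.32) and RPL13AP20 (11.25) are pseudogenes whose features may read the near-identical parent transcripts, so their values are uncertain. Of the 100 brightest genes with a named feature 90 were protein-coding, 6 were long noncoding RNA genes and 11 belonged to the ribosomal list. Their median range was 0.21, and 3 of the 100 had a range of at least 1 log2, against 702 of all 14884 genes (4.72%).

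Housekeeping lists were bright by their measured members, and most differed little between arrays. Measured were 46 of 78 ribosomal proteins, 12 of 34 translation factors and 9 of 30 cytoskeletal genes. For glycolysis it was 9 of 19 genes, for oxidative phosphorylation 15 of 50 and for chaperones 11 of 30. All 46 measured cytosolic ribosomal proteins lay above background on all 3 arrays, where 43.2% of all genes did, with a list median of 8.38 against 4.46 for all genes. None had a range of 1 log2, and the widest were RPS23 (9.39, 9.39 and 8.74) and RPL38 (7.69, 7.30 and 7.09). The 12 measured translation factors had a median of 8.51 and the 17 aminoacyl-tRNA synthetases, which charge tRNAs, one of 8.73. Glycolysis (9 members, median 7.80) was led by GPI at 9.04 and LDHB at 8.32. Oxidative phosphorylation (15 members, median 7.49) was led by the cytochrome oxidase subunits COX6A1 at 10.55 and COX8A at 10.36. The next brightest feature of COX6A1 was below the background level on every array, at 4.31, 3.70 and 4.41. Of 11 heat shock proteins and chaperones 10 were above background, with CALR and HSPH1 (10.13) brightest. Among cytoskeletal genes PFN1, which feeds actin monomers to growing filaments, stood at 10.18 and ACTR3, of the Arp2/3 complex, at 9.96, while LSP1, an actin-binding protein of leukocytes, read 5.51, 5.32 and 4.23 and was lowest on replicate 3. The lysosome list was bright but not even: 14 of 16 measured members were above background on all arrays. A range of at least 1 log2 was seen for 5 of 16, against 4.72% of all genes. Prosaposin (PSAP) at 10.09, 9.46 and 8.81 and progranulin (GRN) at 9.88, 9.44 and 8.44 were among these 5. None of the 31 proteasome subunits and none of the 12 MHC class II genes fixed in lists could be matched by name, so those lists are without values.

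Some monocytic genes were bright and others were near background. Of 18 measured monocyte and macrophage genes 12 were above background on all arrays (43.2% of all genes), 1 was mixed and 5 were near background (48.4% of all genes). TYROBP, an adaptor of activating receptors, read 10.79, 10.40 and 9.43. LYZ, the lysozyme of granules and monocytes, read 10.85, 10.37 and 8.51, and the macrophage colony-stimulating factor receptor CSF1R 6.57, 6.22 and 5.05. In all 3 genes replicate 3 was lowest. CD14, the co-receptor for bacterial lipopolysaccharide that defines classical monocytes, was near background on every array at 4.18, 3.66 and 3.22. In bulk RNA fewer cells of a type and less RNA per cell cannot be told apart, here or in any list below.

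Granule genes were above and near background in shares like those of all genes. Of 20 measured, 7 were above background (43.2% of all genes), 3 mixed and 10 near it (48.4% of all genes). PRTN3 and MPO, the myeloperoxidase of azurophil granules, were the brightest. MPO read 9.11, 9.53 and 10.17 and so was highest on replicate 3, whereas PRTN3 was lowest there. S100A8, which forms calprotectin with S100A9 in maturing myeloid cells, read 8.21, 7.93 and 5.77. S100A9 read 7.23, 6.52 and 4.91. Both were lowest on replicate 3, with ranges of 2.44 and 2.33.

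Leukaemia and myeloid transcription factors were mostly expressed: 17 of 18 measured were above background (43.2% of all genes), with a median of 7.02. IRF8, needed for monocyte fate, read 10.32, 10.17 and 9.13. MYB, a progenitor factor on which KMT2A-fusion leukaemias depend, read 9.45, 9.44 and 9.30, with a range of 0.15. MYC had a mean of 8.77 ± 0.26 (SD, n = 3), SPI1, the master factor of the myeloid lineage, one of 7.96 ± 0.24 (SD, n = 3), and MEIS1 one of 5.52 ± 0.39 (SD, n = 3). The immediate early factor EGR1 (6.42, 6.48 and 8.14) and KLF2 (6.05, 5.01 and 4.82) had the widest ranges of the list: replicate 3 was high for EGR1 and replicate 1 for KLF2. CD33, CEBPA, HOXA9 and PTPRC were not matched to a feature by name and have no value here.

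Stem and progenitor genes were mostly dim, with 11 of 15 near background (48.4% of all genes), CD34 among them at 3.49, 3.74 and 3.35. CD38 was the brightest at 8.11, 7.75 and 6.20, followed by the RNA-binding protein MSI2 at 6.71, 6.38 and 6.47. The stem cell factor receptor KIT read 5.93, 6.15 and 4.09, below the background level on replicate 3. FLT3, the mutated receptor of this line, read 9.67, 9.46 and 8.27. Both receptors were lowest on replicate 3, with ranges of 2.06 (KIT) and 1.40 (FLT3).

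Measured markers of other lineages lay near background for the most part. Few were measured in some lists, such as 6 of 18 erythroid and 6 of 19 fibroblast and muscle markers. The shares near background on all 3 arrays were 10 of 14 T and NK cell markers, 12 of 14 B cell markers, 4 of 6 erythroid, 6 of 7 megakaryocyte and platelet, 10 of 13 epithelial, 5 of 6 fibroblast and muscle, 7 of 9 endothelial, 5 of 8 neuron and glia, 12 of 12 liver, kidney and pancreas, and 13 of 14 testis and germ cell genes, against 48.4% of all genes. EPCAM, the epithelial adhesion molecule, had a mean of 3.95 and albumin (ALB) one of 4.02. The erythroid factor GATA1 was mixed at 4.03, 4.04 and 4.58.

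Some members of these lists were above background on all 3 arrays. KRT18, an epithelial keratin, had a mean of 7.17 and endoglin (ENG), also known on activated monocytes, one of 7.50. NKG7, a granule membrane protein of killer cells, stood at 7.0 and NCAM1, the adhesion molecule CD56, at 6.56. PECAM1, an adhesion molecule of endothelium and leukocytes, read 6.77, 6.19 and 5.26 and was lowest on replicate 3. PAX5 (5.75) and BANK1 (5.61) of the B cell list and the platelet chemokine PF4 (5.21) were lower but above background on every array. The oligodendrocyte factor OLIG1 read 6.41, 5.79 and 4.52 and its neighbour OLIG2 5.45, 4.75 and 4.34, with replicate 1 highest for both. On replicate 3 OLIG1 was barely above the background level of 4.45, and OLIG2 was below the background level on replicates 2 and 3. The T cell receptor subunit gene CD3E had no named feature.

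Among 1072 microRNA genes 129 lay above background on all arrays. The features lie on the microRNA genes and do not show whether the primary transcript, the hairpin or the mature RNA was read. The following 4 genes, chosen after their values were seen, are known in myeloid cells or were among the more variable, and their mature sequences from RefSeq (GRCh38.p14) are shown with the seed, bases 2 to 8, in capitals.
hsa-miR-142-3p: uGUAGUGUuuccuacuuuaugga
hsa-miR-223-3p: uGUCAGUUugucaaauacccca
hsa-miR-196b-5p: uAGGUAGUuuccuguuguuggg
hsa-miR-21-5p: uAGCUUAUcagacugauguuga
The 4 seeds differ. MIR142 (chr17:58331245-58331267 for this arm, minus strand), a microRNA gene of all blood lineages, was the brightest of the class at 9.49, 9.26 and 8.80. MIR223 (chrX:66018937-66018958, plus strand), which rises as myeloid cells mature, read 8.0, 7.15 and 6.66. MIR196B (chr7:27169528-27169549, minus strand), which lies in the HOXA cluster, read 8.16, 7.83 and 7.0. MIR21 (chr17:59841273-59841294, plus strand) read 5.91, 4.89 and 4.45. For all 4, replicate 1 was highest and replicate 3 lowest, an order seen in 5 of the 12 brightest microRNA genes and in 26 of the 129 above background. Over all genes replicate 1 was highest for 31.4% and replicate 3 lowest for 39.1%, and the share with both was not counted. In the class as a whole 28 genes (2.61%) had a range of at least 1 log2, against 4.72% of all genes.

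Differences between the 3 control arrays were then described gene by gene. A range of at least 1 log2 was seen for 702 of 14884 genes (4.72%), of at least 2 log2 for 73 and of at least 3 for 12. Between replicates 2 and 1 only 37 genes (0.249%) differed by 1 log2 or more, of which 4 (0.0269%) were higher and 33 (0.222%) lower on replicate 2. The counts were 596 (4%) between replicates 3 and 1, with 251 (1.69%) higher and 345 (2.32%) lower on replicate 3, and 419 (2.82%) between replicates 3 and 2, with 262 (1.76%) higher and 157 (1.05%) lower. Of the 702 genes, 589 had replicate 3 as the array farthest from the middle value, higher for 319 and lower for 270. For 98 it was replicate 1, which was higher for 91 of them, and for 15 it was replicate 2. Without replicate 3 the 702 genes became 37. The share with such a range was 0.526% among genes with a mean level under 4, 8.43% from 4 to 6, 7.43% from 6 to 8, 5.33% from 8 to 10 and 2.25% at 10 or more.

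**Figure D2:**
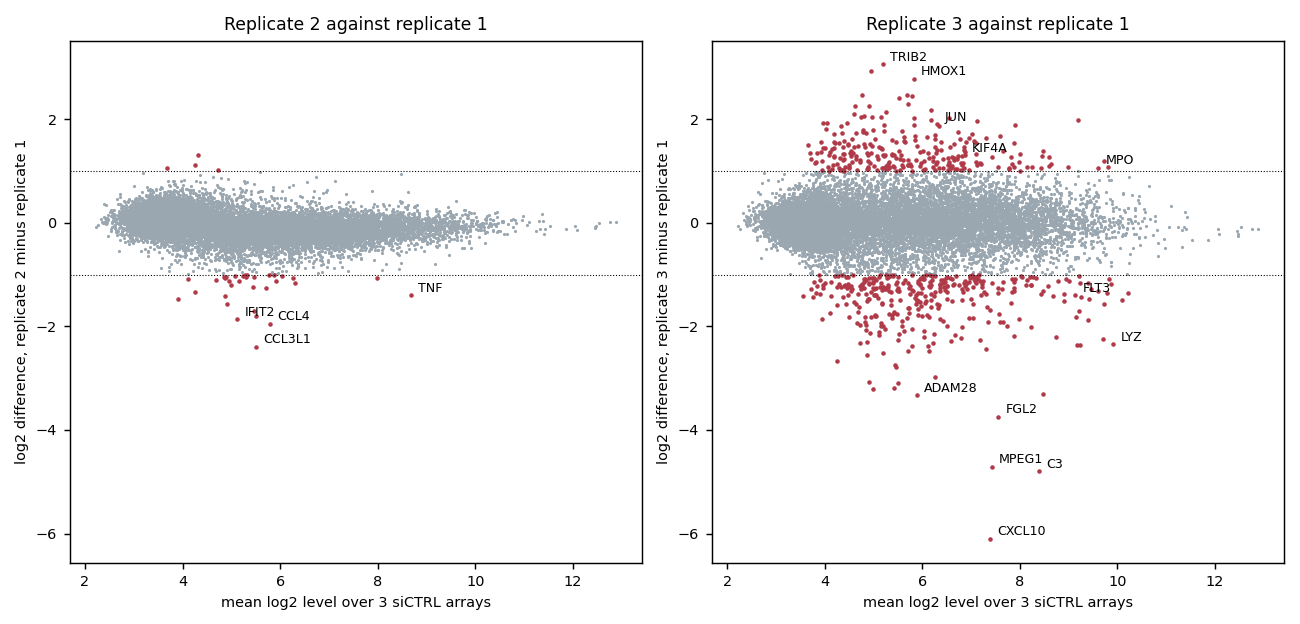
Each point is 1 of 14884 genes, with its mean log2 level over the 3 siCTRL arrays on the horizontal axis and a log2 difference between 2 arrays on the vertical axis; dotted lines mark 1 log2 and points past them are red. Replicate 2 against replicate 1 has 37 red points and replicate 3 against replicate 1 has 596, with CXCL10, C3 and MPEG1 lowest.

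The widest range of all belonged to CXCL10, an interferon-induced chemokine, at 9.73, 8.79 and 3.63, from bright on the first 2 arrays to below background on replicate 3. C3, the central complement component, read 10.18, 9.60 and 5.38, and MPEG1, the pore-forming perforin-2 of macrophages, 9.17, 8.65 and 4.46. FGL2, a fibrinogen-like protein of monocytes, read 9.01, 8.38 and 5.27. In all 4 genes replicate 2 was lower than replicate 1 by less than 1 log2, and replicate 3 was lower by over 3 log2 than either. ADAM28 (7.08, 6.82 and 3.75), the lectin CD209 (6.79, 5.85 and 3.60), SLAMF7 (6.61, 5.84 and 3.87) and the antiprotease SLPI (7.60, 6.54 and 4.63) had the same order of arrays. So did MEFV, the pyrin inflammasome sensor (6.29, 5.52 and 3.79), the cytokine subunit EBI3 (5.59, 4.25 and 2.92), IL7R (6.95, 5.25 and 4.17), LINC00926 (7.11, 6.66 and 4.63) and LINC00996 (6.66, 6.24 and 4.19). NCF1B (9.83, 9.05 and 6.53) is a near-identical copy of the NADPH oxidase gene NCF1, and its feature may read NCF1 itself.

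Genes at the other end were dim on replicates 1 and 2 and brighter on replicate 3. HMOX1, the heme oxygenase, read 5.21, 4.27 and 7.99. TRIB2, a pseudokinase that degrades C/EBP-alpha, read 4.06, 4.39 and 7.12, and the ephrin EFNB2 3.85, 4.19 and 6.79. ZNF827 (3.72, 4.39 and 6.20), RTKN2 (4.78, 5.0 and 7.25) and the ephrin receptor EPHB6 (4.94, 5.06 and 7.39) were alike in that replicate 3 stood over 1 log2 above both other arrays. Over all genes, replicate 3 was at least 1 log2 above both other arrays for 177 genes (1.19%) and at least 1 log2 below both for 143 (0.961%).

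The gene lists covered a small share of these differences: 100 of the 702 genes were in a list and 602 in none. Of 35 lists with a measured member 8 had list means that differed by at least 0.5 log2 between arrays. Interferon response, monocyte and macrophage, NF-kB and lysosome genes were lowest on replicate 3 and highest on replicate 1. G2/M and mitosis, G1/S and DNA replication, amino acid synthesis and the integrated stress response were highest on replicate 3.

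**Figure D3:**
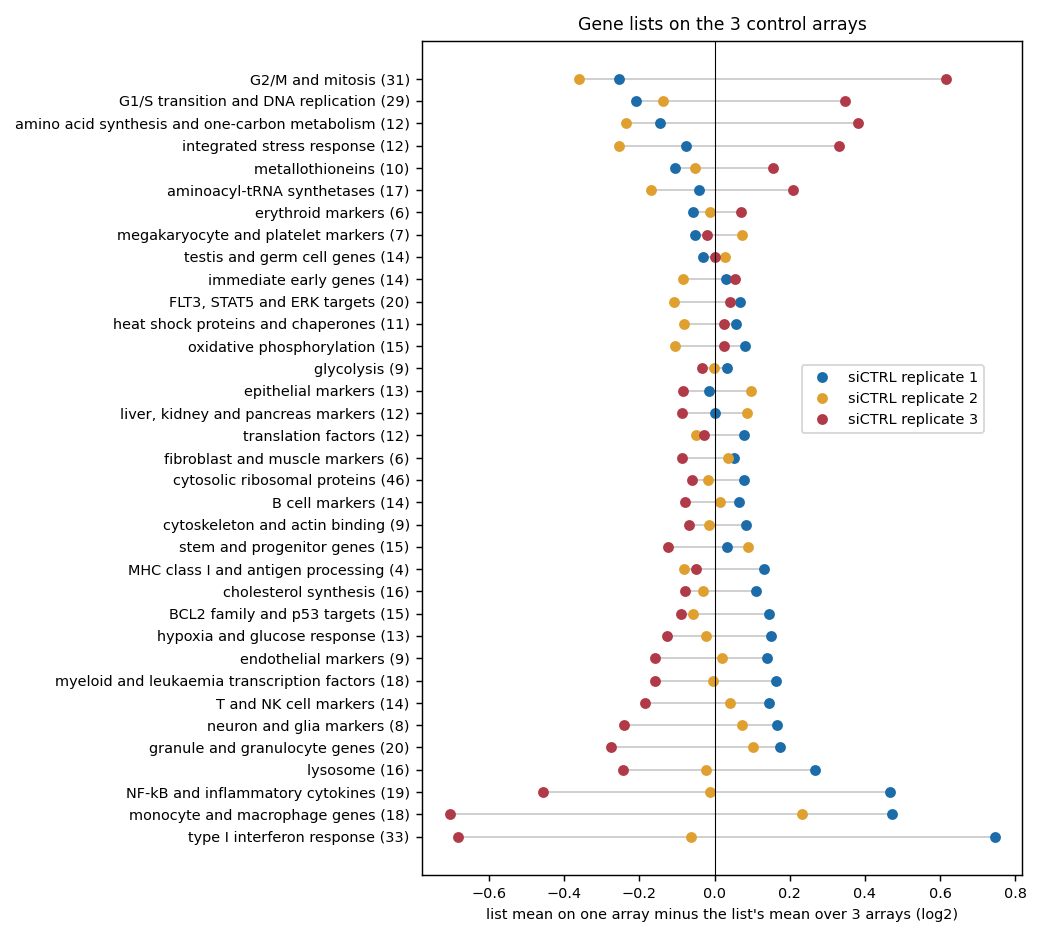
Each row is a gene list (number of measured members in brackets) and each point an siCTRL array, placed at the list mean on that array minus the list's mean over the 3 arrays, in log2. Replicate 3 (red) lies farthest right for the cell cycle, amino acid and stress lists and farthest left for the interferon and monocyte lists, while the ribosomal and glycolysis lists span 0.14 and 0.07 log2.

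By list mean, interferon-stimulated genes had the largest shift of the 35 lists, a rank that rested on replicate 1. Without it their range was 0.62, against 0.98 for G2/M and 0.94 for monocyte genes, and by the median of members monocyte genes had the wider range, at 2.08. The mean over 33 measured members was 6.91, 6.10 and 5.48 on replicates 1, 2 and 3. Members with a range of at least 1 log2 numbered 24 of 33, against 4.72% of all genes. Replicate 1 was highest for 32 of 33 (31.4% of all genes) and replicate 3 lowest for 29 (39.1% of all genes). Of the 24 members, replicate 1 was the array farthest from the middle for 15 and replicate 3 for 8. This list also held 8 of the 33 genes that were lower by 1 log2 on replicate 2 than on replicate 1.

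Several antiviral effectors went from clear signal to background. IFI44L read 6.30, 5.57 and 3.09, IFI44 6.45, 4.88 and 3.38, and IFIT1, which binds foreign RNA ends, 6.18, 4.76 and 3.63. Their levels on replicate 3 were below the background level of that array, 4.45, and IFIT1 was also below that of replicate 2, 4.82. IFIT2 (6.46, 4.60 and 4.29) and IFIT3 (6.83, 5.03 and 4.68) differed in shape: replicates 2 and 3 were close and replicate 1 was high. On replicates 2 and 3 IFIT2 was below the background level and IFIT3 little above it, so a difference between those arrays could be missed. The RNA sensor IFIH1 read 7.68, 6.83 and 5.51, MX2 5.89, 5.12 and 3.76, and IRF9, the DNA-binding part of the interferon-activated complex ISGF3, 7.23, 6.30 and 4.85. Of the brightest members IFITM2, a membrane restriction factor, differed little at 8.87, 8.81 and 8.55, whereas the RNA-activated kinase EIF2AK2 read 9.16, 8.60 and 7.95, a range of 1.21 against a list median of 1.29.

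Promoters of these genes were searched for the core of the interferon-stimulated response element, written as GAAA, any 2 bases and GAAA, on both strands of the 250 bases before each annotated start in RefSeq (GRCh38.p14). A match was held by 17 of 26 list members with a promoter there (65.4%), against 3.4% of 10749 measured genes and 3.71% of all 27305 genes in the table. Of the 8 members with the widest ranges 6 had a promoter there and 5 of these held a match. Those 5 are shown, from 5′ to 3′ on the gene's strand, because they are the members that varied most, with matches on either strand in capitals.
IFI44L: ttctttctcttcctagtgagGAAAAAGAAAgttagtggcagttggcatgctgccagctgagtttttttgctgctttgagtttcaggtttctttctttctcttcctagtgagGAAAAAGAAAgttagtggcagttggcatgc
IFI44: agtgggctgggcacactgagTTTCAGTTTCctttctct
IFIT1: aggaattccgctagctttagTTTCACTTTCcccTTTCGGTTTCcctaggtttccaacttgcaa
IFIH1: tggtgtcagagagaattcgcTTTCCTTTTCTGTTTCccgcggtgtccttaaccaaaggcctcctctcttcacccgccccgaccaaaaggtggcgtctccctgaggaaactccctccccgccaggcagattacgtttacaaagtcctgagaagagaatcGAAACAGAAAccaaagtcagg
IFIT3: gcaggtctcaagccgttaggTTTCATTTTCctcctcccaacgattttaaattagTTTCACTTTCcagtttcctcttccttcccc
The windows lie at chr1:78620264-78620404 (IFI44L, plus strand), chr1:78649751-78649788 (IFI44, plus), chr10:89392487-89392549 (IFIT1, plus), chr2:162318685-162318863 (IFIH1, minus) and chr10:89327821-89327904 (IFIT3, plus). IFIH1 held 3 matches, IFI44 held 1, and the others held 2 each. The promoter of IRF9 held no match in this window. A match is a description of letters and not of binding. The list holds genes known to respond to interferon, so its share does not bear on the differences between arrays. A link of matches to those differences was not tested.

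Monocyte and macrophage genes followed replicate 3. The list mean was 7.04, 6.80 and 5.87, replicate 3 was lowest for 15 of 18 members (39.1% of all genes), and 7 of 18 had a range of at least 1 log2 (4.72% of all genes), all 7 with replicate 3 as the low array. Besides MPEG1, FGL2, LYZ, CSF1R and TYROBP these were the costimulatory ligand CD86 (6.80, 5.92 and 5.02) and the chemokine receptor CCR2 (5.82, 5.96 and 4.68). The list mean differed by 0.24 between replicates 1 and 2. The lysosome list had means of 7.74, 7.45 and 7.23, with 5 of 16 members past 1 log2 (4.72% of all genes). They were GRN (9.88, 9.44 and 8.44), PSAP (10.09, 9.46 and 8.81), the peptidase TPP1 (8.43, 8.03 and 7.18), and the cathepsins CTSZ (7.60, 7.32 and 6.59) and CTSH (4.49, 3.77 and 3.28). Of these CTSH was near background throughout.

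**Figure D4:**
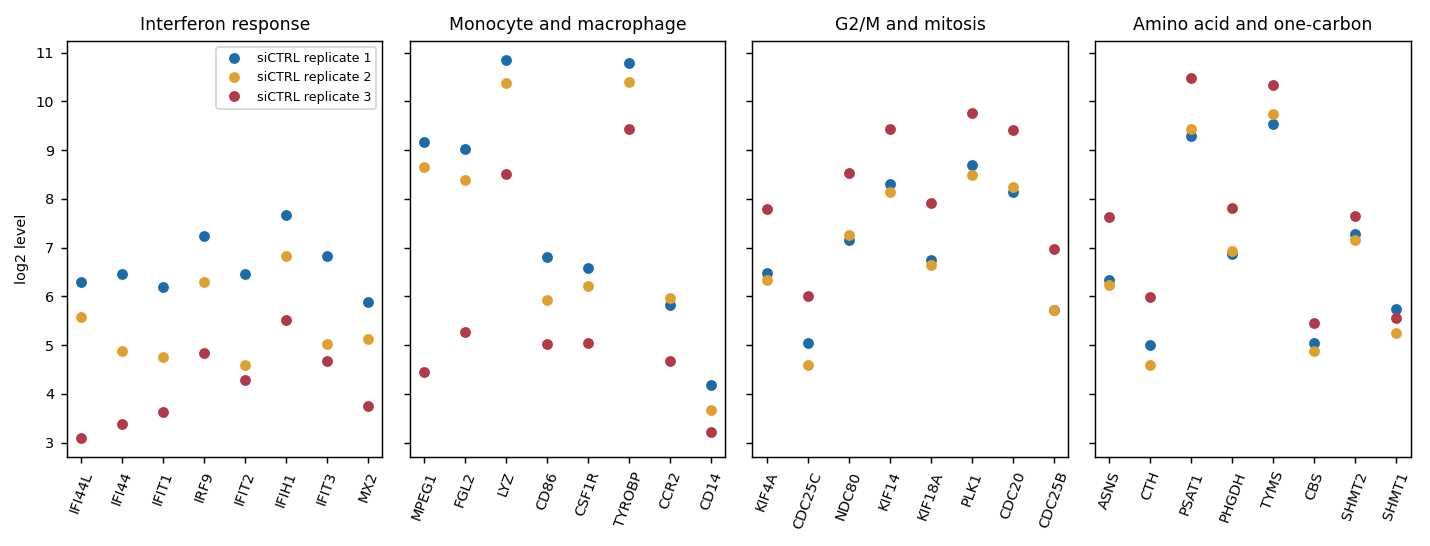
Log2 levels on siCTRL replicates 1 (blue), 2 (yellow) and 3 (red) of the 8 members with the widest range in each of 4 lists. Replicate 3 is the lowest point for all 8 interferon genes and all 8 monocyte genes and the highest for all 8 mitotic genes, while of the amino acid genes SHMT1 is highest on replicate 1 at 5.74.

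Inflammatory cytokine genes combined both shapes. The mean of the 19 measured NF-kB and cytokine genes was 6.55, 6.07 and 5.62, and 8 of 19 had a range of at least 1 log2 (4.72% of all genes). The widest of these was the interferon-induced CXCL10 given above (9.73, 8.79 and 3.63), with a range of 6.10, which weighs on the list mean. TNF read 9.61, 8.21 and 8.20, so replicate 1 stood alone, and the chemokine CCL4 did the same at 7.23, 5.28 and 4.85. The interleukin-1 receptor antagonist IL1RN (6.21, 5.16 and 5.03) and CD83 (7.57, 6.84 and 6.54) were also high on replicate 1, whereas CCL2 (5.84, 5.78 and 3.73) and the adhesion molecule ICAM1 (8.45, 7.96 and 6.54) were low on replicate 3. CCL3L1, outside the list, read 7.34, 4.95 and 4.24, and CCL3 4.64, 3.85 and 3.43. CCL3, 1 of the 8, was near background on every array, and CCL3L1 was below the background level on replicate 3. CCL3L1 is a near-identical copy of CCL3, so the split between them is uncertain. CCL5, a T cell chemokine, was bright and nearly even at 8.22, 8.60 and 8.59.

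Mitotic genes were higher on replicate 3 without exception in the list. The mean of 31 measured G2/M genes was 7.43, 7.32 and 8.30, replicate 3 was highest for 31 of 31 (38.3% of all genes), and 15 of 31 had a range of at least 1 log2 (4.72% of all genes). The kinesin KIF4A, which acts on chromosomes and the spindle midzone, read 6.49, 6.34 and 7.79, the kinesin KIF14 read 8.30, 8.15 and 9.44, and KIF18A 6.75, 6.65 and 7.92. The kinetochore protein NDC80 read 7.15, 7.26 and 8.53, the mitotic kinase PLK1 8.68, 8.49 and 9.76, and CDC20, an activator of the anaphase-promoting complex, 8.15, 8.25 and 9.41. The phosphatases that switch on CDK1 behaved alike, with CDC25C at 5.04, 4.59 and 6.01 and CDC25B at 5.72, 5.72 and 6.96. CDC25C was below the background level on replicate 2. The brightest members were MKI67 (9.90, 10.03 and 10.78) and TOP2A (9.97, 9.83 and 10.54). Replicates 1 and 2 were close throughout, with list means 0.10 apart.

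The replication list, with genes of the G1/S step, went the same way by less. Their mean was 7.17, 7.24 and 7.72, replicate 3 was highest for 27 of 29 members (38.3% of all genes), and 3 of 29 had a range of at least 1 log2 (4.72% of all genes). These were the replication kinase CDC7 (6.30, 6.50 and 7.77), the checkpoint adaptor CLSPN (6.77, 6.93 and 7.91) and the helicase subunit MCM5 (8.13, 8.44 and 9.23). MCM3 was bright and less variable at 9.12, 9.18 and 9.51, and TYMS, the thymidylate synthase, read 9.52, 9.74 and 10.34.

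Mitotic promoters were searched for TTTGAA, the core of the cell cycle homology region that holds such genes silent outside G2 and M phase. Of 28 members with a promoter 16 (57.1%) held these letters on either strand of the 250 bases before a start, against 13.6% of measured genes. The letters are short and common, the list holds known mitotic genes, and a link of matches to the differences between arrays was not tested. Of the 8 widest members 5 held a match, and the 4 with a single match, each on the gene's own strand, are shown with it in capitals.
PLK1: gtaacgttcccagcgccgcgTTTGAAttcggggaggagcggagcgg
CDC25C: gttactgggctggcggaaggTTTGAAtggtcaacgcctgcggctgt
KIF4A: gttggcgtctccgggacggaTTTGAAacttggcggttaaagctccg
KIF18A: gctgaggaaagtggcttgggTTTGAAtatt
The windows lie at chr16:23678840-23678885 (PLK1, plus strand), chr5:138331809-138331854 (CDC25C, minus), chrX:70290050-70290095 (KIF4A, plus) and chr11:28108157-28108186 (KIF18A, minus), with the match 29, 30, 34 and 10 bases before the start.

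Amino acid and stress genes were also higher on replicate 3. The list of amino acid synthesis and one-carbon metabolism had means of 6.98, 6.89 and 7.51, with replicate 3 highest for 9 of 12 members (38.3% of all genes). ASNS, the asparagine synthetase, read 6.33, 6.24 and 7.63, CTH, which makes cysteine from cystathionine, 5.0, 4.60 and 5.99, and PSAT1, the serine pathway aminotransferase, 9.28, 9.44 and 10.48. These were the 3 of 12 members with a range of at least 1 log2 (4.72% of all genes), and CTH was below the background level on replicate 2. PHGDH, which opens the serine pathway, read 6.86, 6.92 and 7.81. Replicate 3 was the high array in each.

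The 12 measured genes of the integrated stress response had means of 5.85, 5.68 and 6.26, and replicate 3 was highest for 9 (38.3% of all genes). ATF4, the factor at the head of this response, was nearly even at 8.67, 8.64 and 8.85. Among its targets TRIB3 read 5.79, 5.82 and 7.05, DDIT3, which encodes CHOP, 4.57, 4.25 and 5.53, and SESN2, an inhibitor of mTORC1, 6.21, 5.88 and 7.15. STC2 (5.09, 5.29 and 5.87) and GDF15 (5.0, 4.57 and 5.48) were highest on the same array. DDIT4 was lowest on that array at 8.68, 8.27 and 8.23. DDIT3 was below the background level on replicates 1 and 2, and GDF15 on replicate 2, so the size of their differences is less certain.

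Aminoacyl-tRNA synthetases had means of 8.43, 8.31 and 8.68, with replicate 3 highest for 13 of 17 (38.3% of all genes). CARS1 read 6.34, 6.01 and 7.12 and SARS1 6.70, 6.60 and 7.56, whereas EPRS1 (10.02, 9.95 and 10.16) and NARS1 (9.92, 9.88 and 9.94) hardly differed. The C/EBP-ATF element core TGATGNAA, to which ATF4 binds with a C/EBP partner, was found before a start of 3 of 12 stress genes, 2 of 9 amino acid genes and 3 of 14 synthetases with a promoter in the table. The share was 2.83% of measured genes, and a link of matches to the differences between arrays was not tested. Of the 8 widest amino acid genes 7 had a promoter in the table, and among these only ASNS held the core. The 8 widest stress genes all had a promoter there, and 0 held the core. The ASNS element (minus strand, chr7:97872449-97872496) is shown because the ASNS promoter is a well studied case.
ASNS: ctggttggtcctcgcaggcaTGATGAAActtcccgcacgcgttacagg

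Signalling and survival genes differed one by one and not as lists. The FLT3, STAT5 and ERK target list had means of 6.0, 5.83 and 5.98, although 6 of 20 members had a range of at least 1 log2 (4.72% of all genes): DUSP5, an ERK phosphatase, read 4.17, 3.69 and 5.78, the opposite direction to FLT3. Immediate early genes had means of 6.41, 6.30 and 6.43 with JUN at 5.73, 5.57 and 7.63 and its partner FOS at 6.59, 6.58 and 4.79. JUNB (8.44, 8.26 and 8.15) was nearly even and JUND read 9.08, 8.76 and 8.13. In the BCL2 and p53 list the anti-apoptotic BCL2A1 read 7.07, 6.05 and 4.98 and the BH3-only gene PMAIP1 6.40, 6.11 and 7.63, while BCL2, the brightest of the list, was nearly even at 8.53, 8.67 and 8.64. MCL1, the brightest of the FLT3 list and a survival gene, read 9.14, 9.20 and 9.24. The metallothionein MT1G read 7.08, 6.46 and 7.98, and MT1X, the brightest of that family, 8.44, 8.54 and 9.14.

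Apart from the amino acid and synthetase lists, metabolic and translation lists differed little between arrays. List means of glycolysis differed by 0.07 between arrays, translation factors by 0.13, ribosomal proteins and chaperones by 0.14 each, and oxidative phosphorylation and cholesterol synthesis by 0.19 each. The 6 lists held no member with a range of 1 log2 (4.72% of all genes). The hypoxia and glucose list held 1 of 13, near the share over all genes, the mitophagy receptor BNIP3L at 7.46, 7.17 and 6.44. In cholesterol synthesis the brightest members MSMO1 and SQLE had means of 7.18 and 6.86, and the sterol sensor partner INSIG1 read 7.01, 6.86 and 6.29. Of the MHC class I genes 4 were measured, with the light chain B2M at 9.28, 8.94 and 8.67.

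Genes with more than 1 feature gave another reading of the same arrays. Of 779 such genes 76 had features with identical values, left out here, and in 248 of the others both features were above background on at least 1 array. In these 248 the difference between replicates 3 and 1 in the brightest feature correlated with that in the next brightest at r = 0.81 across genes, and at r = 0.74 for replicates 3 and 2 and 0.51 for replicates 2 and 1. Both features share the array and may share probes, and genes are not independent replicates. Of 22 genes whose brightest feature differed by at least 1 log2 between replicates 3 and 1, the next brightest differed in the same direction for 21, with a median of 1.02 in that direction. LYZ was one of them, with a next brightest feature at 10.39, 10.20 and 8.46. The background filter can be passed on the higher array alone. With dim features included (703 genes) the correlation for replicates 3 and 1 was 0.63. There the direction was shared by 36 of 38 genes, the median of the next brightest was 0.64, and 12 of the 38 reached 1 log2. DUSP5 and FOS did not reach it. Their next brightest features read 2.97, 3.01 and 3.15 (DUSP5) and 4.47, 4.69 and 4.01 (FOS), below background on every array.

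**Figure D5:**
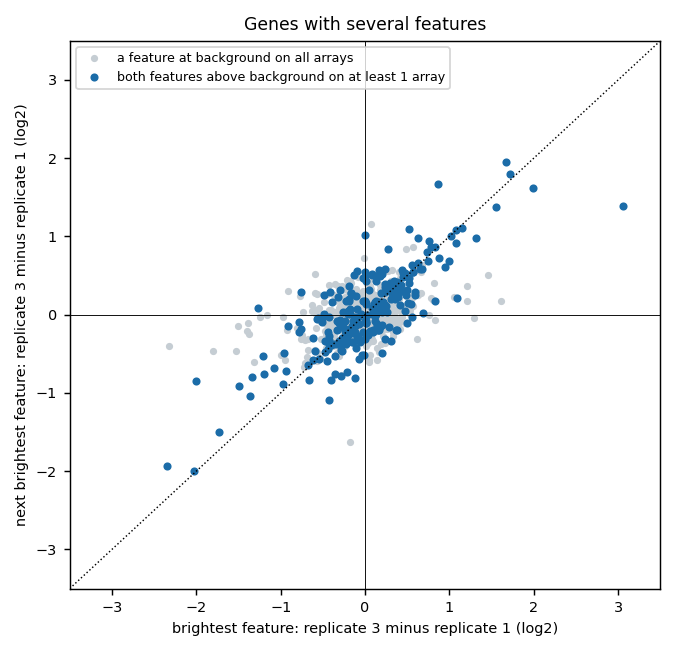
Each point is 1 of 703 genes with several features, with replicate 3 minus replicate 1 in log2 for its brightest feature (horizontal) and its next brightest (vertical), and equality dotted. The 248 genes with both features above background (blue) lie along the dotted line more closely (r = 0.81) than all 703 (r = 0.63).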

How the data were processed

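Per the labels' protocols, RNA was extracted with Trizol and labelled with the GeneChip WT PLUS kit. The deposited values, 1 for each of 53617 features and each sample, were read as log2. Partek is named in the submitters' processing notes; how it corrected background and normalized, in which version and on which log base, is not given in the sources used here. Like array medians were taken to mean that the authors normalized the values.

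From these, features were named through the array's annotation table: 16098 had 1 symbol, 0 several and 37519 none. Each of the 16098 identifiers was found in the GRCh38.p14 gene table, which changed 0 symbols. The brightest feature over the 3 siCTRL arrays stood for each gene (779 had several). The background reference first set, olfactory receptor genes, had 1 named gene, so the alternative reference of 85 genes replaced it. No filter was applied. Called means a size of at least 1 log2 (0.5 for list means). The calculation was tested on simulated data. Python 3.11.15, pandas 2.3.3 and numpy 2.4.6 were used.

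The lists (37, with 35 measured) and the genes to name were chosen with earlier results of these data known. Of the 939 genes in the lists 532 were measured. Named were the 20 brightest genes, the 24 with the widest range among those above background on any array, per list the 2 brightest and 2 widest members, 8 for lists past 0.5 log2, and 20 identity genes, of which 14 were measured. MicroRNA genes and CCL3 with its neighbours were set side by side after their values were seen. Alternatives tried were scaling by quantiles or to equal medians, averaging a gene's features, each array left out, other thresholds and other background levels. Promoter and microRNA sequences are RefSeq's.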

Additional observations from a re-analysis of the deposited data

How the results depend on the processing

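No paired analysis was possible because 1 group was described and no comparison between groups was made. The genes above the background level numbered 11159 and the genes near the background level 1482 when the background level came from the 1 named olfactory receptor gene, so these counts depend on the reference chosen. The 90th and 99th percentiles of the reference genes, chosen after seeing the data, gave 6893 and 4837 for genes above the background level and 6800 and 8899 for genes near the background level. Percentiles of olfactory receptors could not be formed from 1 gene. At a threshold of 0.58 log2 the genes past it numbered 2623 by range, and 434, 1881 and 1796 between replicates 2 and 1, 3 and 1, and 3 and 2. At 2 log2 they numbered 73, 1, 68 and 26. With each array left out the number of genes with a range of at least 1 log2 ran from 37 (without replicate 3) to 596, and was 419 without replicate 1.

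Ranges of list means with each array left out ran from 0.24 to 1.18 for monocyte genes, 0.62 to 1.43 for interferon genes, 0.44 to 0.92 for NF-kB genes, 0.18 to 0.59 for the stress response, 0.0884 to 0.62 for amino acid genes, 0.0701 to 0.56 for G1/S, 0.10 to 0.98 for G2/M and 0.22 to 0.51 for lysosome genes. The lowest values came without replicate 3, except for interferon, NF-kB and lysosome genes, where they came without replicate 1. The median of members in place of the mean gave 2.08 for monocyte and 1.64 for NF-kB genes. No difference of at least 1 log2 in a named gene turned its direction under quantile normalization, equal medians or the mean of features. Signal over background limits the genes near background, whose differences are less certain.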
